A study of Homo sapiens with 6 samples.

Results

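The genes described here are those of Kv1.3 and of store-operated calcium entry, 10 genes chosen by name and measured by mRNA sequencing of MOLT-4 cells, out of 60640 gene identifiers in each library. MOLT-4 is an established human line of T-cell acute lymphoblastic leukemia (T-ALL), and the series compares 3 libraries of its CRISPR control, called wild type here, with 3 libraries labelled IK-KO, in which CRISPR editing was aimed at IKZF1, the gene of the DNA-binding protein IKAROS. Both groups were grown alike in RPMI with 10% FBS and polyA RNA was sequenced. The edited cells and their control were bought as such. The labels name no clone and do not say whether replicates are separate cultures, so p-values measure the spread between these libraries, which may be technical. The 10 genes are KCNA3, KCNN4, ORAI1, ORAI2, ORAI3, STIM1, STIM2, ITPR1, ITPR2 and ITPR3.

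In T cells, antigen receptor signaling activates phospholipase C, whose product InsP3 opens the InsP3 receptors (ITPR1, ITPR2 and ITPR3) in the endoplasmic reticulum. The fall of calcium in that store is sensed by STIM1 and STIM2, which span its membrane and open the pore-forming ORAI proteins of the plasma membrane. Potassium leaving through Kv1.3 (KCNA3), which opens on depolarization, and KCa3.1 (KCNN4), which opens on internal calcium, holds the membrane potential that drives calcium inward, and blockers of Kv1.3 dampen T-cell activation.

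Levels are in FPKM, fragments per kilobase of transcript, scaled to 1000000 mapped fragments, so that genes can be compared per length. IKZF1 RNA itself was read at 134, 124 and 105 FPKM for wild type against 207, 260 and 207 FPKM where the label is IK-KO, a rise of 0.89 ± 0.12 on the log2 scale (SE, n = 3 and 3, adjusted p = 0.00295, limma). The deposited confidence bounds were wide in IK-KO replicates 2 (183 to 336 FPKM) and 3 (168 to 247 FPKM), though above the highest wild-type bound of 141 FPKM. RNA level was thus not reduced under the label, and the group is named by its label throughout. Gene totals do not show whether the transcript is edited. The study's methods describe checks of the knockout by PCR and by western blot for the protein. Its supplement presents an IKAROS blot of wild-type MOLT-4 cells and 2 knockout clones. These checks are not part of the expression values used here. All 10 T-lineage markers were detected in all libraries, with CD3E at 372 to 425 FPKM and LCK at 211 to 229 FPKM, and their summed level was 1309 to 1374 FPKM in wild type and 1437 to 1623 FPKM in IK-KO. Of these markers, 8 were called (19.9% of all tested genes were), 4 in each direction. CD4, with an IK-KO mean under 1 FPKM, passed the level filter given below only through its wild-type values. The count of called markers leans on that. CD7 fell from 15.8 to 4.17 FPKM (log2 change -1.72), CD5 from 25.3 to 11.7 (-1.06), TAL1 from 23.1 to 12.3 (-0.86) and CD4 from 2.76 to 0.384 (-1.45), while CD1A (0.86), PTCRA (0.69), CD3D (0.44) and CD99 (0.40) rose. The part of these marker changes in the results that follow was not tested. Summed markers of B cells (at most 3.62 FPKM), myeloid cells (0.744), erythroid cells and megakaryocytes (0.631) and NK cells (4.88) stayed low, with HBB, PF4 and NCR1 at 0. In the epithelial and stromal list, VIM made up nearly all of the 463 to 544 FPKM, with EPCAM and COL1A2 at 0. FPKM keep no fragment totals, but relative depth read from the confidence bounds ran from 0.902 to 1.11 of the mean, and its ranges in the 2 groups overlapped.

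Among the members, KCNA3, KCNN4, ORAI2, STIM1 and ITPR3 were lower in IK-KO, and no member was called higher. A gene is called here at an adjusted p under 0.05 (limma on log2 of FPKM + 1, Benjamini-Hochberg over 12652 genes with a mean of at least 1 FPKM). Of the 10 members, 9 were tested, 5 were called and 4 were not, against 19.9% of all tested genes called in either direction, 9.75% called lower and 10.1% called higher. One further member, ORAI1, had an unadjusted p under that threshold in the upward direction (0.0286), which did not hold after adjustment. The groups did not overlap for 5 tested members that were lower and for 2 that were higher, and overlapped for 2. Over all tested genes, 39% had groups that did not overlap, 18.1% with the IK-KO group lower. The median change of the tested members was -0.42 on the log2 scale beside 0.017 over all tested genes. KCNA3 passed the level filter only through its wild-type values, so counts over the tested members cannot stand for all members. In bulk RNA, fewer cells carrying a transcript and less transcript per cell cannot be told apart.

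**Figure D1:**
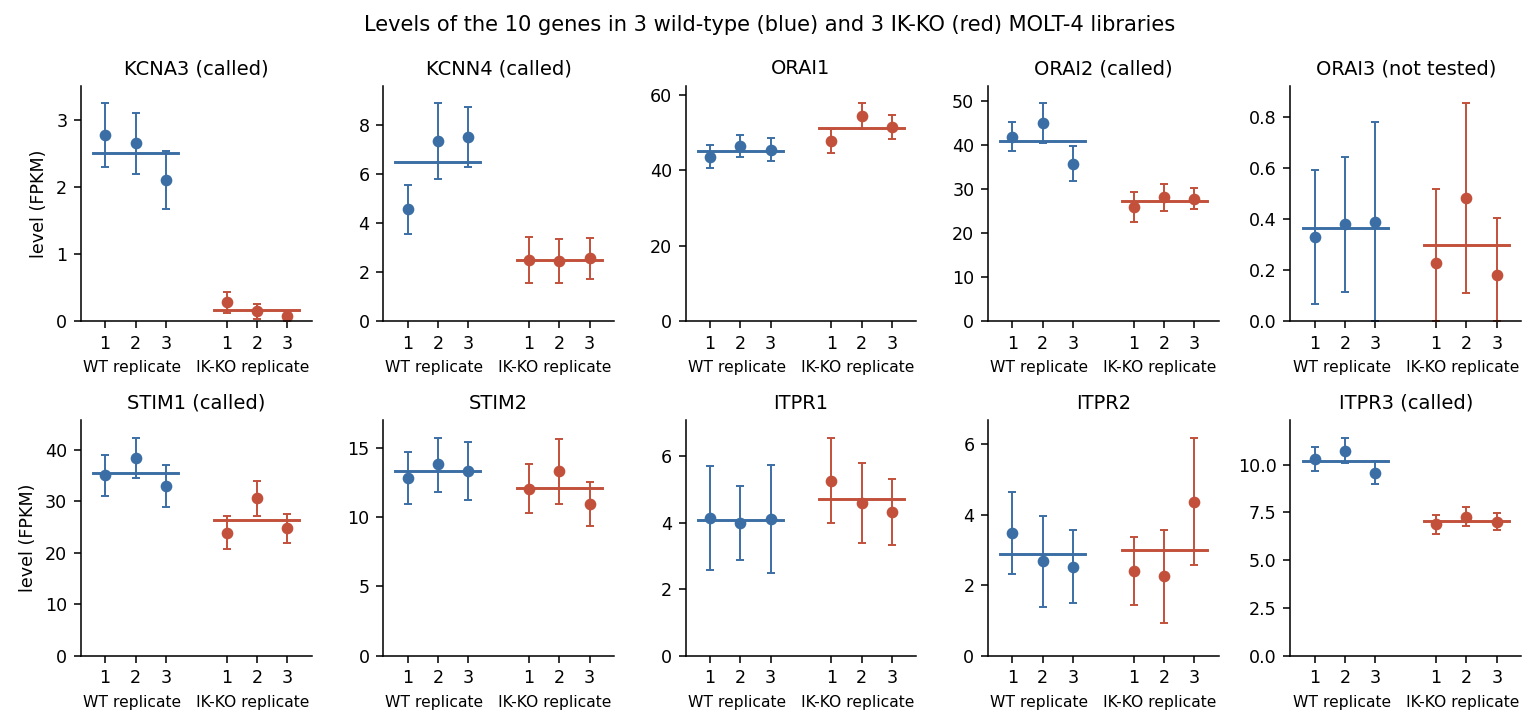
Level in FPKM (y axis, from 0, scaled separately for each gene) of the 10 members in each of 3 wild-type (WT, blue) and 3 IK-KO (red) libraries; bars are the deposited 95% confidence bounds of each library and lines are group means. KCNA3, KCNN4, ORAI2, STIM1 and ITPR3 sit lower in every IK-KO library, ORAI1 and ITPR1 sit higher, and STIM2, ITPR2 and ORAI3 overlap.

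RefSeq promoter windows of GRCh38.p14, from 250 bases before to 50 bases after an annotated start, were found for 8 of the 10 members, not for ORAI1 and ITPR2. KCNA3 had 3 such windows and STIM1 had 4. For each, only the window whose start lay nearest the 5' end of the measured gene was used. The motif counts of the members cover that window alone, whereas the share over all windows covers every annotated start. The windows of the 5 members called lower are printed because the edited gene encodes a DNA-binding protein whose recognition core is known as GGGAA. Each is given 5' to 3' on the strand of its gene, with every GGGAA, or its complement TTCCC, in capitals. The windows lie at chr1:110674891-110675190 (minus strand, KCNA3), chr19:43780924-43781223 (minus, KCNN4), chr7:102433325-102433624 (plus, ORAI2), chr11:3854354-3854653 (plus, STIM1) and chr6:33621072-33621371 (plus, ITPR3).
KCNA3: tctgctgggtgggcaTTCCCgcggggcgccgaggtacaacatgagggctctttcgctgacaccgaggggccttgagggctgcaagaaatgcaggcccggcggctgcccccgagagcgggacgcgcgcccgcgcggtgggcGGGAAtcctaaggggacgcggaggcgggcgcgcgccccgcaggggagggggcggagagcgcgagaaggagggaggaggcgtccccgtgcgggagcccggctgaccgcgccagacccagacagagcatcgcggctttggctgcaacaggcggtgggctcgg
KCNN4: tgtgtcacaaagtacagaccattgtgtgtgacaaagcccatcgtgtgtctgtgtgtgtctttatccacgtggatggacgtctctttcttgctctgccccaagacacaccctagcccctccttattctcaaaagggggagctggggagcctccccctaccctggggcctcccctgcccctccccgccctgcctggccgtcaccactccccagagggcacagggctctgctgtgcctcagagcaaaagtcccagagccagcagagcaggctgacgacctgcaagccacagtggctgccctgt
ORAI2: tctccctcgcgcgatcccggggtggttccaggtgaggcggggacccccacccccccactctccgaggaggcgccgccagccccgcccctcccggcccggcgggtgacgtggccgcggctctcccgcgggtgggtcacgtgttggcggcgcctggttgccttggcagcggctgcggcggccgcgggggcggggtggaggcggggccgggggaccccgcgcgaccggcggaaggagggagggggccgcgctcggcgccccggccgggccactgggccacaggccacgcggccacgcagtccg
STIM1: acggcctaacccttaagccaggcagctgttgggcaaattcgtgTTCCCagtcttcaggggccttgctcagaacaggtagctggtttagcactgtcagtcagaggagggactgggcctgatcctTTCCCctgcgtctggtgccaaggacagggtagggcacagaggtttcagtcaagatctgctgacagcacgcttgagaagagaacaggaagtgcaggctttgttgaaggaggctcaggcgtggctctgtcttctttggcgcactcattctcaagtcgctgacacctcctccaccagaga
ITPR3: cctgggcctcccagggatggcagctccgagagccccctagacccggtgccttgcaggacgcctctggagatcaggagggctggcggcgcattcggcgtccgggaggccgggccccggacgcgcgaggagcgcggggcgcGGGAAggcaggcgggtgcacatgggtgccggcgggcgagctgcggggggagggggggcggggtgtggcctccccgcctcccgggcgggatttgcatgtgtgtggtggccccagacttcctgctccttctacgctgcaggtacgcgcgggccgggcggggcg
The motif occurred 2 times for KCNA3, 235 and 110 bases before the start, 2 times for STIM1, 207 and 127 bases before it, and 1 time for ITPR3, 111 bases before it. KCNN4 and ORAI2 held none. Among the members that were not called lower, ORAI3 and ITPR1 held 1 each and STIM2 none, so that 5 of 8 members had it, beside 65% of 35116 RefSeq promoter windows of the same length. The longer TGGGAA, which contains GGGAA, occurred in 1 member, STIM1, and in 24% of all windows. The start used is that of KCNA3 in the files to the base, whereas it lay 284 bases inside the files' gene for KCNN4, 469 for ORAI2, 77 for STIM1 and 957 for ITPR3. These letter matches describe the windows and say nothing of binding.

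KCNA3 encodes the pore of Kv1.3 and showed the largest change of the members. In the files it lies at chr1:110672465-110674940 (GRCh38, ENSG00000177272.9), and GENCODE 44 lists it as protein-coding on the minus strand. Its level was 2.77, 2.66 and 2.1 FPKM in wild-type replicates 1 to 3 and 0.275, 0.141 and 0.0757 FPKM in IK-KO replicates 1 to 3. All 3 IK-KO libraries were far below all 3 wild-type libraries, and the groups did not overlap. The means were 2.51 ± 0.359 and 0.164 ± 0.102 FPKM (SD, n = 3 each), a 15.3-fold lower mean, with 6.52% of the wild-type level left. On the log2(FPKM + 1) scale the change was -1.59 ± 0.17 (SE, 95% interval -2.00 to -1.18, adjusted p = 0.00118). That scale understates a gene this low, and with 0.1 in place of 1 the change was -3.37. Of the 12652 tested genes, 126 (0.996%) fell by at least as much. The highest upper bound of an IK-KO library, 0.434 FPKM, lay under the lowest lower bound of a wild-type library, 1.67 FPKM. The bounds correspond to 93.7 to 136 fragments per wild-type library and 4 to 11.9 per IK-KO library, so the residual level rests on few fragments.

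The gene model matters for KCNA3. The nearest tested gene before it, the unnamed transcript AL365361.1 at chr1:110653560-110657040 (ENSG00000259834.1), lies 15425 bases away and fell alongside it. Its level was 3.23, 3.18 and 2.09 FPKM in wild type and 0.235, 0.166 and 0.0519 FPKM in IK-KO, again with every IK-KO library lowest, at a mean 18.8-fold lower and a change of -1.73 ± 0.19 (SE, adjusted p = 0.00129). GENCODE 44 has no gene by this identifier, and its 3481 bases lie whole within exon 3 of KCNA3-202, a transcript annotated for nonsense-mediated decay whose exon 1 overlaps the KCNA3 of the files. There KCNA3 has 6 transcripts, of which 1 has a single exon with exactly the 2476 bases that the files give KCNA3. Under that annotation both intervals belong to KCNA3. They are kept apart here, as in the files, which give no strand for either.

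KCNN4, the calcium-activated partner of Kv1.3 (chr19:43766533-43781257, minus strand), fell less. Its level was 4.56, 7.36 and 7.52 FPKM in wild type and 2.49, 2.44 and 2.57 FPKM in IK-KO. Wild-type replicate 1 was the lowest of its group but still above every IK-KO library, and the IK-KO libraries were close to each other. The means of 6.48 ± 1.66 and 2.5 ± 0.0648 FPKM differed 2.59-fold (log2 change -1.07 ± 0.18, 95% interval -1.49 to -0.65, adjusted p = 0.00673). KCNA3 and KCNN4 both fell by over 2-fold on this scale, as did 2.1% of all tested genes with a call. Since KCNA3 lost more, the KCNN4 to KCNA3 ratio of FPKM went from 1.64, 2.77 and 3.58 in wild type to 9.08, 17.3 and 33.9 in IK-KO, without overlap, although the latter rest on the few fragments of KCNA3.

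**Figure D2:**
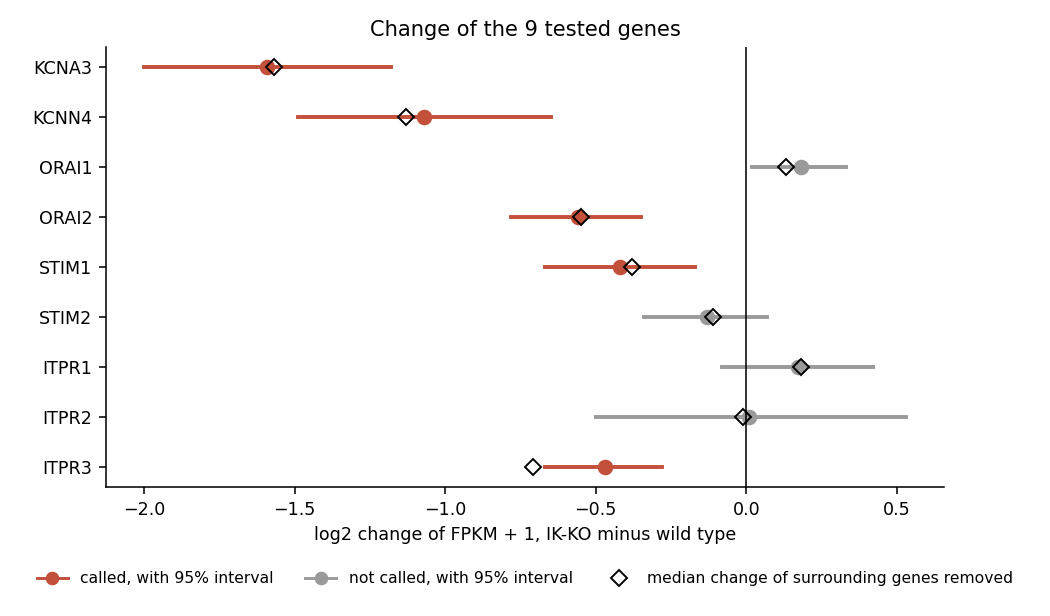
Change of each of the 9 tested members (x axis, log2 of FPKM + 1, IK-KO minus wild type) with its 95% interval, in red where called and in grey where not; open diamonds give the change after the median change of 50 tested genes on each side is removed. KCNA3 lies at -1.59 and KCNN4 at -1.07, and the diamonds leave the filled points little changed except for ITPR3, at -0.71 in place of -0.47.

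Among the ORAI genes, ORAI2 fell while ORAI1 did not. ORAI1, the main pore of store-operated entry in T cells (chr12:121626550-121642677), was the highest of the 10 members in both groups, at 43.6, 46.4 and 45.5 FPKM in wild type and 47.7, 54.5 and 51.6 FPKM in IK-KO. All 3 IK-KO libraries were above all wild-type libraries, but the change of 0.18 ± 0.06 (95% interval 0.02 to 0.33) was not called (adjusted p = 0.102). ORAI2 (chr7:102433106-102456825), a pore subunit known to join ORAI1 in mixed channels, was at 41.9, 45 and 35.8 FPKM in wild type and 25.9, 28.1 and 27.8 FPKM in IK-KO. Its groups did not overlap and the bounds of single libraries were apart, with means of 40.9 ± 4.66 and 27.3 ± 1.16 FPKM and a change of -0.56 ± 0.09 (95% interval -0.78 to -0.35, adjusted p = 0.00583). ORAI3 (chr16:30949068-30956461), the remaining paralog, was at 0.18 to 0.483 FPKM over all 6 libraries with 2.51 to 8.23 fragments each, too low to test.

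The makeup of the family moved with ORAI2. ORAI1 made up 50.8%, 50.6% and 55.7% of summed ORAI FPKM in wild type and 64.6%, 65.6% and 64.9% in IK-KO, without overlap. The ratio of ORAI1 to ORAI2 was 1.04, 1.03 and 1.27 in wild type and 1.84, 1.94 and 1.86 in IK-KO. Summed ORAI FPKM, at 85.8, 91.8 and 81.8 in wild type and 73.9, 83 and 79.5 in IK-KO, overlapped between the groups. The 588 last bases of ORAI2 in the files overlap ALKBH4, annotated on the other strand. ALKBH4 was at 12.1 to 13.4 FPKM in every library, with a change of 0.02 that was not called (adjusted p = 0.875).

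STIM1 (chr11:3854527-4093210), the main sensor of store calcium, was at 35, 38.4 and 33 FPKM in wild type and 23.9, 30.6 and 24.7 FPKM in IK-KO. The groups did not overlap, although IK-KO replicate 2 came near wild-type replicate 3, and the confidence bounds of these libraries overlapped. The change of -0.42 ± 0.11 (95% interval -0.67 to -0.17) was called at an adjusted p of 0.0331, the weakest call among the members. Leaving out wild-type replicate 1 (adjusted p = 0.081) or 2 (0.1), or IK-KO replicate 1 (0.0974) or 3 (0.0974), ended the call. STIM2 (chr4:26857601-27025381), which responds to smaller losses of store calcium, was at 12.8, 13.8 and 13.3 FPKM in wild type and 12, 13.3 and 10.9 FPKM in IK-KO. These overlapped, and the change of -0.13 ± 0.09 was not called (95% interval -0.34 to 0.07, adjusted p = 0.345).

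STIM1 exceeded STIM2 in all 6 libraries, 2.73, 2.79 and 2.48 times in wild type and 1.98, 2.31 and 2.26 times in IK-KO. Summed STIM FPKM was 47.8, 52.1 and 46.3 in wild type and 35.9, 43.8 and 35.7 in IK-KO, without overlap. The ratio of pore to sensor, ORAI1 to STIM1, went from 1.25, 1.21 and 1.38 in wild type to 2, 1.78 and 2.08 in IK-KO. In that ratio, too, each IK-KO library was above each wild-type library.

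Of the InsP3 receptors, ITPR3 fell and the other two were not called. ITPR3 (chr6:33620365-33696574), the most abundant of these release channels here, was at 10.3, 10.7 and 9.57 FPKM in wild type and 6.88, 7.27 and 7.01 FPKM in IK-KO. The groups lay well apart with little spread, and the change was -0.47 ± 0.08 (95% interval -0.67 to -0.28, adjusted p = 0.00757). Tested genes on chromosome 6 had a median change of 0.21, and with the median of 50 neighbors on each side removed ITPR3 changed by -0.71 (adjusted p = 0.000955). ITPR1 (chr3:4493345-4847840) was at 4.14, 3.99 and 4.12 FPKM in wild type and 5.27, 4.59 and 4.32 FPKM in IK-KO. Its IK-KO libraries were all higher, but its change of 0.17 ± 0.11 was not called (95% interval -0.08 to 0.42, adjusted p = 0.32).

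ITPR2 (chr12:26335352-26833194) was at 3.47, 2.67 and 2.52 FPKM in wild type and 2.4, 2.25 and 4.37 FPKM in IK-KO. IK-KO replicate 3 was the highest library and IK-KO replicates 1 and 2 the lowest. The change of 0.01 ± 0.22 (95% interval -0.50 to 0.53, adjusted p = 0.975) had no stable direction, and was -0.22 without IK-KO replicate 3. ITPR3 made up 59.4% ± 2.11 of summed receptor FPKM in wild type and 47.8% ± 3.48 in IK-KO (SD, n = 3 each), without overlap. ITPR1 went from 23.8% ± 1.38 to 32.1% ± 4.37, also without overlap, and ITPR2 was at 16.8% ± 2.28 and 20.1% ± 6.73, with overlap. Summed receptor FPKM was 17.9, 17.4 and 16.2 in wild type and 14.6, 14.1 and 15.7 in IK-KO.

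**Figure D3:**
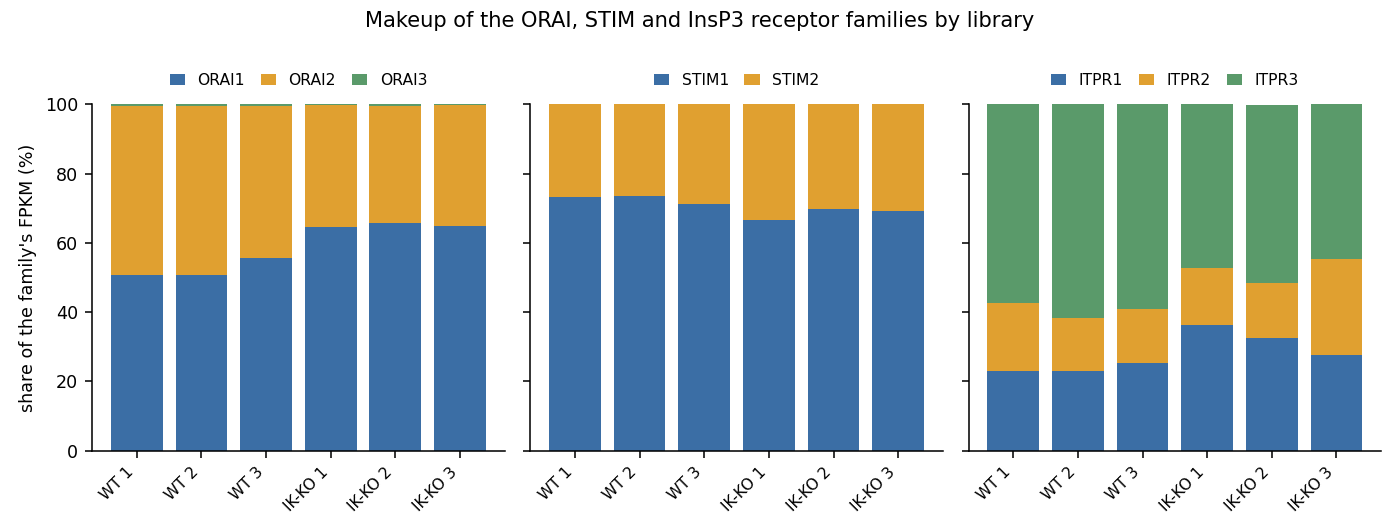
Share of each gene in the summed FPKM of its family (y axis, percent) in each wild-type (WT) and IK-KO library; stacked bars add to 100%. ORAI1 takes 50.6% to 55.7% of the ORAI bars in wild type and 64.6% to 65.6% in IK-KO, and ITPR3 has the largest ITPR share in every library, at a mean of 59.4% in wild type and 47.8% in IK-KO.

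By mean level, the order in wild type ran from ORAI1, ORAI2 and STIM1 through STIM2, ITPR3, KCNN4, ITPR1, ITPR2 and KCNA3 to ORAI3. Neighbors in it whose ranges overlapped were ORAI1 with ORAI2, ORAI2 with STIM1, and ITPR2 with KCNA3. In IK-KO the first 5 places were held by the same genes, and ORAI1 stood apart from ORAI2. KCNN4 came after ITPR1 and ITPR2, and KCNA3, at 0.164 FPKM, came last, in a range that overlapped that of ORAI3.

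The genes closest in pattern to KCNA3 over the 6 libraries, by the distance between centred log2(FPKM + 1) values, included TMC6 at 0.159 and GYPC at 0.179. TMC6, a transmembrane channel-like protein, went from 24 ± 4.06 to 7.35 ± 0.563 FPKM. GYPC, a glycophorin, went from 2.24, 2.23 and 1.66 FPKM to being listed at 0 in all 3 IK-KO libraries. For KCNN4 they were LGALSL at 0.223, BMERB1 at 0.256 and PAM, an enzyme that amidates peptides, at 0.285, which share with KCNN4 a low value in wild-type replicate 1. Distances on this scale favor genes with the same absolute step in log2, whatever their level. GYPC, LGALSL and PAM had IK-KO means under 1 FPKM. Like KCNA3, they passed the level filter only through their wild-type values.

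The rest of the pathway was followed in 7 lists of 174 genes, of which 72 were tested and 22 called (30.6%, against 19.9% of all tested genes), 10 higher and 12 lower. The lists were chosen with earlier results of these data known. Among the falls, PLCH1, PLCG2 and KCNK6 passed the level filter only through their wild-type values, and the total leans on that. Calls went both ways in 5 of the 7 lists. Beside the largest rise and fall of each list, other called genes are named, picked after their values were seen. Of the genes without a call, PLCG1, MCU, RYR1, KCNA2 and KCNA10 were also picked outside the naming rule.

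Enzymes that make or remove InsP3 held the largest falls. Of 10 tested, 4 were called. PLCB2, a phospholipase C driven by G proteins, went from 10.9 ± 1.75 to 2.71 ± 0.9 FPKM (log2 change -1.71 ± 0.20, adjusted p = 0.00163). PLCH1 went from 4.3 to 0.662 FPKM (-1.68, adjusted p = 0.002) and PLCG2 from 3.12 to 0.816 FPKM (-1.18, adjusted p = 0.0039). The IK-KO means of both lie under 1 FPKM, so, like KCNA3, they passed the filter only through their wild-type values, and the count of calls in this list leans on that. ITPKC, a kinase that removes InsP3, rose from 2.63 to 4.16 FPKM (0.51, adjusted p = 0.0281). PLCG1, the isoform that the T-cell receptor uses, was the most abundant of the list at 138 ± 17.1 and 139 ± 23.9 FPKM and was not called (0.01, adjusted p = 0.981). The median of the list was -0.01.

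Other potassium channels were mostly near 0, with 40 of 50 below 1 FPKM in every library and KCNA10 and KCNA2, the genes next to KCNA3 in its cluster, not among the 7 tested. Of these 7, 4 were called. KCNK5, a two-pore leak channel, rose from 8.11 ± 0.622 to 17.9 ± 1.25 FPKM (1.05 ± 0.09, adjusted p = 0.000432). KCNK6, which also passed the filter only through wild type, fell from 3.26 to 0.996 FPKM (-1.08, adjusted p = 0.00768), KCNMA1, the BK channel, from 2.51 to 1.02 FPKM (-0.80, adjusted p = 0.019) and KCNK1 from 20.3 to 13.7 FPKM (-0.54, adjusted p = 0.00468). KCNAB2, a beta subunit of Kv1 channels, stood at 33.1 ± 3.41 and 29.6 ± 2.14 FPKM and was not called (-0.16, adjusted p = 0.276).

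Proteins that tune STIM and ORAI moved in both directions, with 5 of 13 tested called. JPH1, a junctophilin that ties the endoplasmic reticulum to the plasma membrane, fell from 8.6 ± 0.55 to 2.99 ± 0.248 FPKM (-1.27 ± 0.10, adjusted p = 0.000347). UBQLN1 fell from 49.2 to 37.1 FPKM (-0.40, adjusted p = 0.00656), or -0.03 with the change of its chromosomal neighbors removed. ANO8 rose from 2.78 to 4.85 FPKM (0.63, adjusted p = 0.00734), ORMDL3 from 41 to 53.9 FPKM (0.39, adjusted p = 0.0113) and PDIA3 from 99.1 to 127 FPKM (0.35, adjusted p = 0.00887). SARAF, which switches STIM1 off, stood at 96.8 ± 4.81 and 104 ± 2.21 FPKM (0.10, adjusted p = 0.218, not called).

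Partners of the InsP3 receptors gave 2 calls of 12 tested. Both were lower, GRINA among them, which fell from 15 to 12.1 FPKM (-0.29, adjusted p = 0.0476). The count was 1 when wild-type replicate 1 or 2 or any IK-KO library was left out. TESPA1, which links receptor signaling to InsP3 receptors in thymocytes, stood at 43.9 ± 3.81 and 42 ± 1.77 FPKM and was not called (-0.06, adjusted p = 0.626).

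Calcium pumps and exchangers gave 2 calls of 7 tested. ATP2A3, the store pump SERCA3, fell from 116 ± 1.82 to 83.4 ± 2.84 FPKM (-0.47 ± 0.05, adjusted p = 0.000774). ATP2B4, a pump of the plasma membrane, rose from 25.6 to 31.9 FPKM (0.31, adjusted p = 0.0136). ATP2A2, the widespread store pump SERCA2, stood at 49.6 ± 3 and 56.3 ± 2.12 FPKM and was not called (0.18, adjusted p = 0.0888).

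Mitochondrial uptake gave 3 calls of 10 tested, all small. MCUR1 rose from 23.7 to 29.4 FPKM (0.30, adjusted p = 0.0106, or 0.05 with its neighbors' change removed) and VDAC1 from 118 to 137 FPKM (0.21, adjusted p = 0.0123). MCUB, the inhibitory subunit of the uniporter, fell from 147 to 125 FPKM (-0.24, adjusted p = 0.034). The pore MCU was not called, and without wild-type replicate 1 the list held 1 call.

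Other calcium-permeable channels gave 2 calls of 13 tested, TMCO1 with 54.5 and 78.8 FPKM (0.53, adjusted p = 0.0242) and PKD2 with 7.34 and 10.5 FPKM (0.46, adjusted p = 0.0396), both higher. The count was 0 when wild-type replicate 1 or 3, or IK-KO replicate 2 or 3, was left out, and 1 when IK-KO replicate 1 was. TRPM4, kept on this list though it passes little calcium itself, was too low to test. RYR1, a release channel of the store, was listed at 0 in all libraries.

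**Figure D4:**
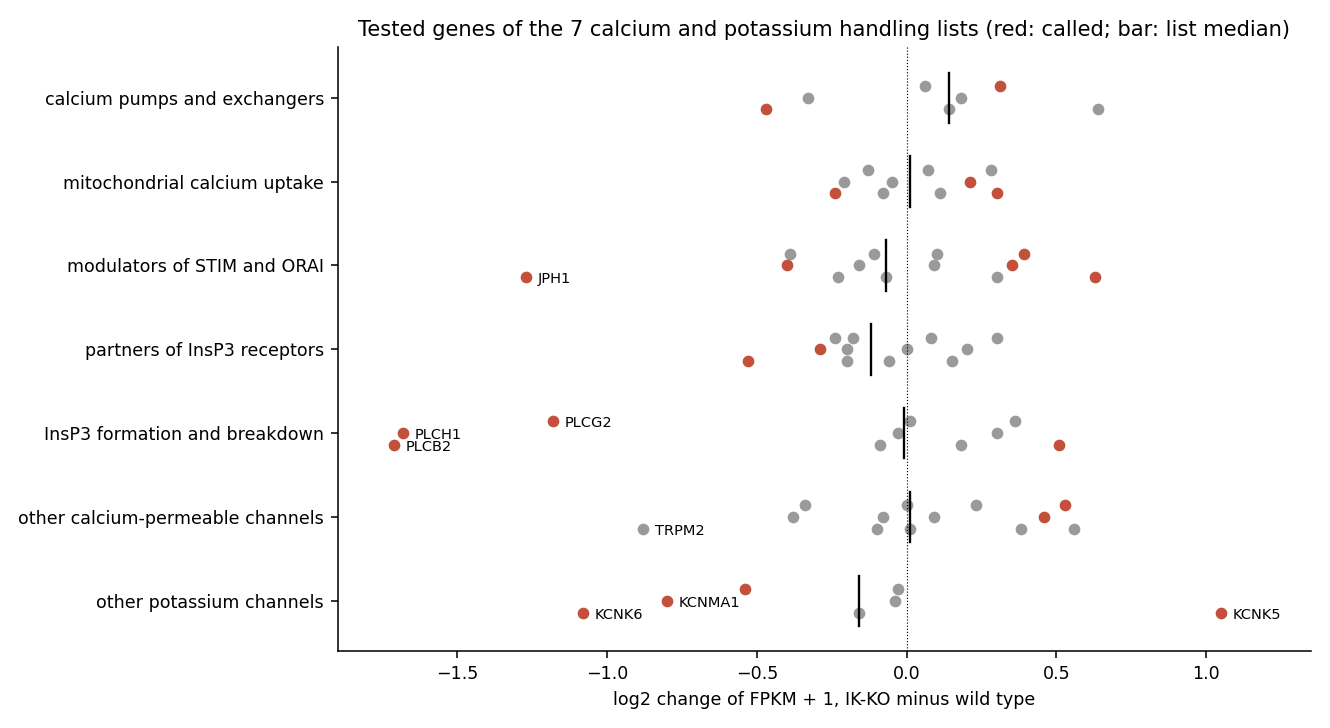
Change of the 72 tested genes of 7 lists around calcium and potassium handling (x axis, log2 of FPKM + 1, IK-KO minus wild type), in red for the 22 called genes and grey for the rest; black bars are list medians and names are given beyond 0.7 in either direction. List medians lie between -0.16 and 0.14, with PLCB2, PLCH1, JPH1, PLCG2 and KCNK6 farthest to the left and KCNK5 farthest to the right.

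Most tested genes within 1 Mb of ORAI2, KCNN4, ITPR3 and STIM1 were not called lower. Over all tested genes, 9.75% were called lower and 10.1% higher. The window of STIM1 held larger shares of both falls and rises than that, and the windows of ITPR3 and KCNN4 larger shares of rises. For ORAI2 the nearest tested genes, PRKRIP1 (0.11) and ALKBH4, were not called, and within 1 Mb 1 of 23 tested genes was. For KCNN4 neither SMG9 (0.17) nor ZNF283 (-0.03) was called, and of 25 genes 5 were, 4 of them higher. Among these rises CADM4 (0.922 and 3.32 FPKM), named after its values were seen, passed the level filter only through its IK-KO values. The count of rises in this window leans on that. For ITPR3 neither BAK1 (-0.06) nor UQCC2 (0.28), which overlaps its last 2282 bases on the other strand, was called, and of 37 genes 13 rose and 2 fell. Around STIM1, RRM1 (-0.06) was not called, while RHOG, a small GTPase, fell from 72.7 ± 2.35 to 49.6 FPKM (-0.54 ± 0.05, adjusted p = 0.000736), and of 11 genes 2 rose and 3 fell.

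Around KCNA3, of 23 tested genes within 1 Mb, 7 were called, 1 higher and 6 lower, beside 10.1% and 9.75% of all tested genes, and the median of the 23 was -0.05. CD53, a leukocyte tetraspanin 196248 bases after KCNA3, was at 61.6, 64.6 and 63.8 FPKM in wild type and 34.9, 33.7 and 42 FPKM in IK-KO (-0.77 ± 0.09, adjusted p = 0.00133). Genes of this window named from here on were chosen after their values were seen. DENND2D went from 93.2 to 4.17 FPKM (log2 change -4.19, adjusted p = 1.41e-06) and CHI3L2 from 154 to 54.7 FPKM (-1.48, adjusted p = 1.08e-05). The 6 that fell also include UBE2FP3 (1.97 and 0.757 FPKM, -0.76, adjusted p = 0.0136), on the side of CD53. On the other side fell AL365361.1, which lies in an exon of KCNA3 in GENCODE 44, and GSTM1 (68.1 and 55.9 FPKM, -0.28, adjusted p = 0.0118). The 1 that rose was GSTM3 (18.1 and 27.4 FPKM, 0.57, adjusted p = 0.000799), on the same side as GSTM1. AL365361.1 and UBE2FP3 had IK-KO means under 1 FPKM (0.151 and 0.757). Both passed the level filter only through their wild-type values, and the count of falls in this window leans on that. Whether the windows of the members differ from each other was not tested.

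**Figure D5:**
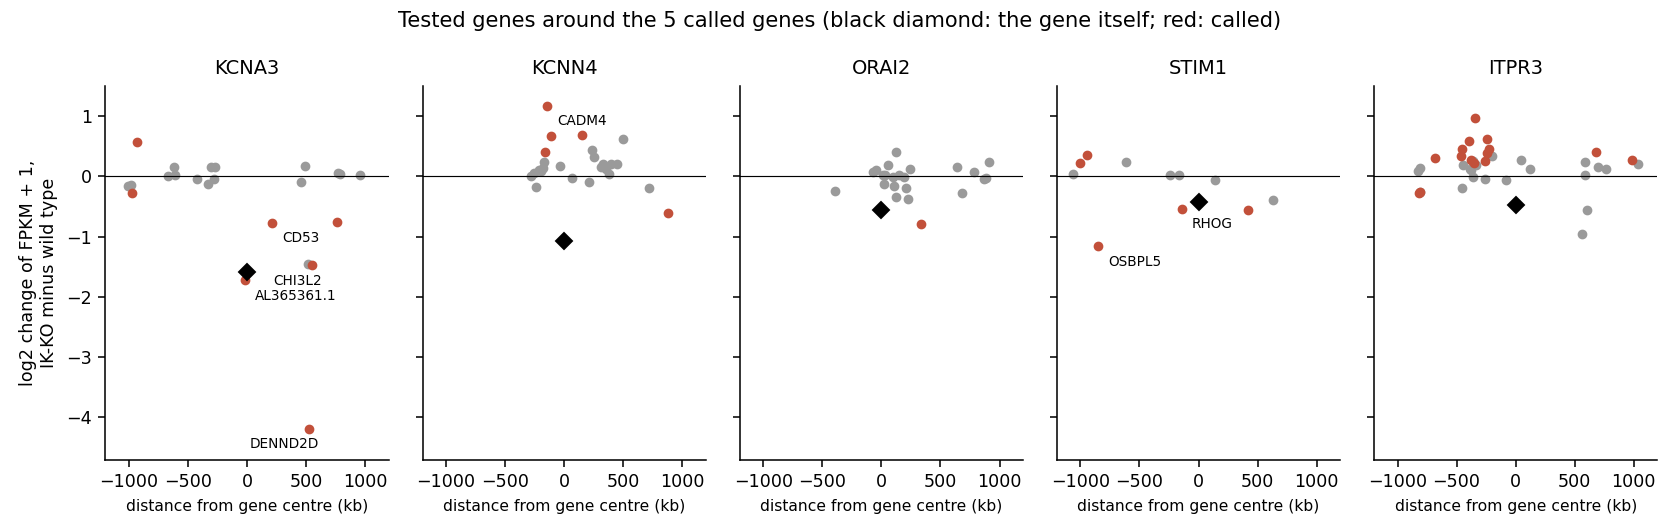
Change of tested genes (y axis, log2 of FPKM + 1, IK-KO minus wild type) by the distance of their centre from that of each called member (x axis, kb), in red where called and grey where not; black diamonds are the members. Around KCNA3, CD53, CHI3L2 and DENND2D lie below 0 on one side with AL365361.1 close beside the gene, whereas 13 of 15 called genes around ITPR3 lie above 0.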

How the data were processed

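Poly(A) RNA of 3 wild-type and 3 IK-KO MOLT-4 libraries was sequenced after NEBNext Ultra II preparation. Per the submitters' processing notes, STAR 2.6.1c, Cufflinks 2.2.1 and hg38 were used. The annotation release and strand setting are not given in the sources used here, nor is it said for which samples technical replicates were merged. The authors deposited 1 FPKM table per library with Cufflinks' confidence bounds, and no counts, so sequencing depth is unknown; implied fragments, (FPKM divided by 1 SD of its bounds) squared, served as a guide and run low for genes with several isoforms.

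The 110 identifiers on more than 1 of the 60752 rows were summed, and 29 that were not estimated in some library were left out. Genes with a mean of at least 1 FPKM (12652) were tested with limma 3.58.1 in R 4.3.3 on log2(FPKM + 1), with a mean-variance trend, two-sided, 3 against 3 libraries, and Benjamini-Hochberg adjustment. A gene was called at an adjusted p under 0.05. Simulated data held 200 changed genes of 12652. Of changes of 0.5 and 1 (log2), 24% and 85.5% were called, with 3 and 8 unchanged genes called. The changed genes were drawn only from those above a set mean log2 level, which KCNA3 does not reach. They were a far smaller share than the 19.9% called in the data, so these rates need not hold there. Same-numbered libraries correlated at 0.067, 0.025 and 0.005 in their deviations from group means, so numbers were not taken to pair them.

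Members and lists were chosen with earlier results of these data known. Named were all members, IKZF1, the called gene with the largest rise and fall of each list, 7 list genes fixed by name, the 3 tested genes nearest in pattern to KCNA3 and KCNN4, and the nearest tested gene on each side of each called member; 2 genes that this rule names are not reported here. Other genes named in the text were picked outside this rule. Coordinates are those of the files (GRCh38, counted from 1). IRAG1 and IRAG2 were matched under older symbols, MRVI1 and LRMP. Alternatives were other pseudocounts, filters and scalings, no trend, a replicate block, removal of the median change of 50 neighbors on each side, kept failed estimates, and each library left out.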

Additional observations from a re-analysis of the deposited data

How the results depend on the processing

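Over the alternatives that could test them, KCNA3 (log2 change -3.37 to -1.54), KCNN4 (-1.30 to -0.96), ORAI2 (-0.65 to -0.49) and ITPR3 (-0.71 to -0.44) kept their direction and their call, and ORAI1, STIM2 and ITPR1 stayed uncalled. STIM1 kept its direction at -0.52 to -0.35 without one library each and at -0.42 without the level filter (adjusted p = 0.106) or without the mean-variance trend (adjusted p = 0.0572), but lost its call in both; its adjusted p ran from 0.0139 to 0.106 over all alternatives. ITPR2 turned to -0.01 with the neighbors' change removed and ran from -0.22 to 0.15 without one library each. With a minimum mean of 5 FPKM, which drops KCNA3 and KCNN4, 3 members were called lower; without one library each it was 4 to 5. With the neighbors' change removed, mitochondrial uptake and the other calcium-permeable channels each held 1 call; without one library each the counts were 1 to 3 for mitochondrial uptake, 1 to 2 for partners of InsP3 receptors and 0 to 2 for the other calcium-permeable channels. The cause was not tested. With the replicate number as a block, 1805 genes were called in place of 2515, and the 5 member calls held (adjusted p = 0.00927 for KCNA3 and 0.0251 for STIM1); same-numbered libraries share only a number. Over all alternatives 1720 to 2807 genes were called, and the share of calls that were higher ran from 45.3% to 55.6%. Depth limits KCNA3 in IK-KO, and ORAI3 in both groups, to a few fragments.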
